A study of Homo sapiens with 6 samples.

Results

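The 37 genes described here make up the DNA replication and S phase set, taken from a list of symbols, and all 37 were measured among 19775 genes on the arrays. A gene was read by the brightest, averaged over the 6 arrays, of those probe sets whose annotation names that gene alone. The arrays were Affymetrix Human U133 Plus 2.0, and values are the authors' log2 levels. Cells of MV4;11, a human acute myeloid leukaemia line with an MLL-AF4 rearrangement, had been kept for 3 h with 25 nM CA (3 arrays) or with DMSO, the solvent (3 arrays). The series title names CA as cortistatin A, a steroidal alkaloid that inhibits the Mediator kinases CDK8 and CDK19. Both groups shared the same medium with serum and antibiotics and were plated in wells in triplicate. The line stands for a single leukaemia in culture, and the labels do not say that the wells came from separate cultures, so a p-value here speaks to the variation among these wells and arrays, and that may be technical. Whether the RNA of an array came from a Qiagen column or from TRIzol is not stated in the labels for each array.

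A cell copies its genome once per division. In G1 the origin recognition complex, CDC6 and CDT1 load the MCM2-MCM7 helicase onto origins. At the start of S phase the kinases CDC7 and cyclin E- or cyclin A-bound CDK2 switch the helicase on with CDC45 and GINS, and polymerases, the PCNA clamp and a supply of deoxynucleotides then carry the fork. Many of these genes are transcribed by E2F factors once RB is phosphorylated, and they are highly expressed in dividing leukaemia cells.

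Promoter sequences are shown first because E2F control is what most of these genes share in the textbooks. The list is named for DNA replication and S phase, and whether known E2F control guided its choice is not stated. RefSeq windows of 250 bases before to 50 bases after the annotated start (GRCh38.p14) were matched by gene identifier for 33 of the 37 genes, and the first window listed was used where a gene has several. MCM4, MCM5, CCNE2 and RPA2 were not matched. Each window was searched on both strands for the E2F letters TTTGGCGC, TTTCCCGC, TTTGCCGC and TTTCGCGC, with overlapping words counted separately. At least 1 of these stood in 17 of the 33 windows (51.5%), against 3.33% of the windows of all 27305 genes in the table and 4.36% of those of 15382 genes measured on the arrays. The letters CCAAT, the box bound by NF-Y, stood in 57.6% of the 33 windows and 35.7% of all windows. The letters TTTGAA, an element of many genes of late cell cycle stages, stood in 3.03% of the 33 windows and 15.4% of all, and TATAAA in 6.06% and 12%. A match is a description of letters and not a bound site.

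5 windows are printed 5' to 3', with E2F letters of either strand in capitals, chosen to set genes with the lowest values under cortistatin A (CLSPN, GINS3, RRM2) beside genes whose values were close to 0 (MCM3, PCNA). The CLSPN window (chr1:35769929-35770228, minus strand) and the GINS3 window (chr16:58392221-58392520, plus strand) each hold 1 match close to the start. The RRM2 window (chr2:10122489-10122788, plus strand) holds none and has 3 CCAAT boxes. The MCM3 window (chr6:52284693-52284992, minus strand) holds 2 matches and the PCNA window (chr20:5126573-5126872, minus strand) 1.
CLSPN: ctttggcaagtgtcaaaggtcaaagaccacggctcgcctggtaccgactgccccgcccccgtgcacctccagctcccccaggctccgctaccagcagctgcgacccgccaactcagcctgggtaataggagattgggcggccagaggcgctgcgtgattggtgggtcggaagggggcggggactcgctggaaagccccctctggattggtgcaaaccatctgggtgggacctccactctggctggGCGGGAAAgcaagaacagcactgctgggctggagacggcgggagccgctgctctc
GINS3: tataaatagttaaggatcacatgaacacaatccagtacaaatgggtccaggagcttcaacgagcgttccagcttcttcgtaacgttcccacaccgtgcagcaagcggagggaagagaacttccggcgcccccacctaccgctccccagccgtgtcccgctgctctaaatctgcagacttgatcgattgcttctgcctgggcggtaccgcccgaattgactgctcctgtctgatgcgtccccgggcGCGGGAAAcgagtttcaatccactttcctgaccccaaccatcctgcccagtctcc
RRM2: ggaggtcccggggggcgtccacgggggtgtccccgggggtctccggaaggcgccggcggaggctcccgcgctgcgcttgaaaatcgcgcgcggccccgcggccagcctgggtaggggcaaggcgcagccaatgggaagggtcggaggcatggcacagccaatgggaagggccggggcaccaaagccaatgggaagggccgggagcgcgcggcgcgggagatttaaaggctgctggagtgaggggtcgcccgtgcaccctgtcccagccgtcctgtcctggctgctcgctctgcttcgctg
MCM3: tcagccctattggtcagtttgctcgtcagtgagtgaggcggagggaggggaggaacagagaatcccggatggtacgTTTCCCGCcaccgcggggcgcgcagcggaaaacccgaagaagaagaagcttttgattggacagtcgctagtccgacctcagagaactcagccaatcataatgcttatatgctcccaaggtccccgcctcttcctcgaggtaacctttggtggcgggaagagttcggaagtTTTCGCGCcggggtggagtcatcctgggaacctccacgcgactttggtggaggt
PCNA: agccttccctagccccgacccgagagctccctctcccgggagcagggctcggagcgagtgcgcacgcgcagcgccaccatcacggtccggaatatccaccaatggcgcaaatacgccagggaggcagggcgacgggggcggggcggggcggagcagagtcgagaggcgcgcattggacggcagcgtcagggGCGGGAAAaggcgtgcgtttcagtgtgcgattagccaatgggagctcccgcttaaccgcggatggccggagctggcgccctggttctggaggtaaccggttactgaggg

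Windows with and without E2F letters both occurred among the lowest and the highest changes. The median log2 change, cortistatin A minus DMSO, was -0.02 for the 17 genes with a match and -0.06 for the 16 without. MCM6, the subunit with the most matches (4), was at 0.01. The 23 matches lay between base -187 and base 8 relative to the start, and 18 of them within 100 bases of it.

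**Figure D1:**
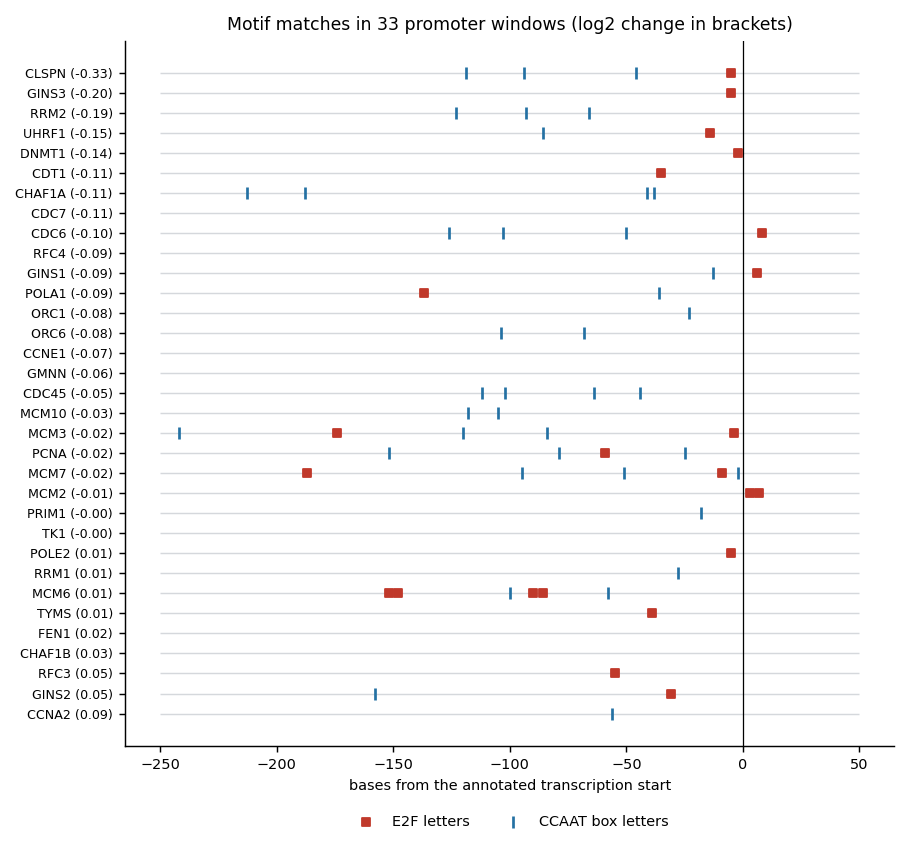
Matches to E2F letters (squares) and to CCAAT (bars) in the promoter windows of 33 replication genes, by distance in bases from the annotated start, with genes ordered from the lowest to the highest log2 change, cortistatin A minus DMSO (in brackets). Of the 33 windows 17 hold E2F letters, and they are spread from CLSPN (-0.33) at the top to GINS2 (0.05) near the bottom.

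After 3 h of cortistatin A the transcripts of the replication machinery stood close to their DMSO levels. Of the 37 genes 0 passed limma's test at a Benjamini-Hochberg adjusted p under 0.05 over all 19775 genes, where 115 genes passed (0.582% of those tested, 0.137% lower and 0.445% higher). Without adjustment, 6 of the 37 had a limma p under 0.05, all with lower values under the drug (16.2%, against 5.83% of all genes), and 0 had higher values (against 6.81% of all genes). The 6 were the fork checkpoint mediator CLSPN, the helicase subunit GINS3, the ribonucleotide reductase subunit RRM2, cyclin E2 (CCNE2) and the methylation factors UHRF1 and DNMT1. The smallest adjusted p of the 37 was 0.143, for CLSPN, whose p ranked 361 among all genes.

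The sizes were small and the intervals narrow. The 37 changes lay between -0.33 and 0.09 on the log2 scale, with a median of -0.03 against 0.0065 for all genes. Below 0 were 26 of them (70.3%, against 47.6% of all genes). The 3 cortistatin A arrays lay entirely below the 3 DMSO arrays for 11 genes (29.7%, against 9.22% of all genes), and entirely above them for 2 genes (5.41%, against 10.2%). The 95% interval of the change came from limma for each gene by itself. With the chosen probe sets it stayed within 1.5-fold in either direction for all 37 genes and within 1.15-fold for 20. It reached no further down than 1.42-fold lower, in CCNE2, and no further up than 1.21-fold higher, in CCNA2. Some other probe sets went beyond these bounds, as that of CCNE2 did at 1.54-fold lower (log2 interval -0.775 to -0.475). All 37 chosen probe sets averaged more than 3.75, the median over every probe set value. The level in bulk RNA does not separate fewer cells in S phase from less RNA per cell, and cell cycle position was not measured here. The mean 3' minus 5' signal of the human control transcripts, a measure of RNA quality, was 2.81 to 2.92 with cortistatin A and 2.76 to 2.78 with DMSO, without overlap. With this index as a covariate limma called 0 of all genes (1934 at an unadjusted p under 0.05), and the median of the 37 genes was -0.07, with 32 of them below 0. Its part in the results was not tested further. Arrays centred on 19 housekeeping genes gave the 37 genes a median of -0.0048 and 19 of them below 0 (51.4%), against a median of 0.03 and 38.6% below 0 for all genes.

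**Figure D2:**
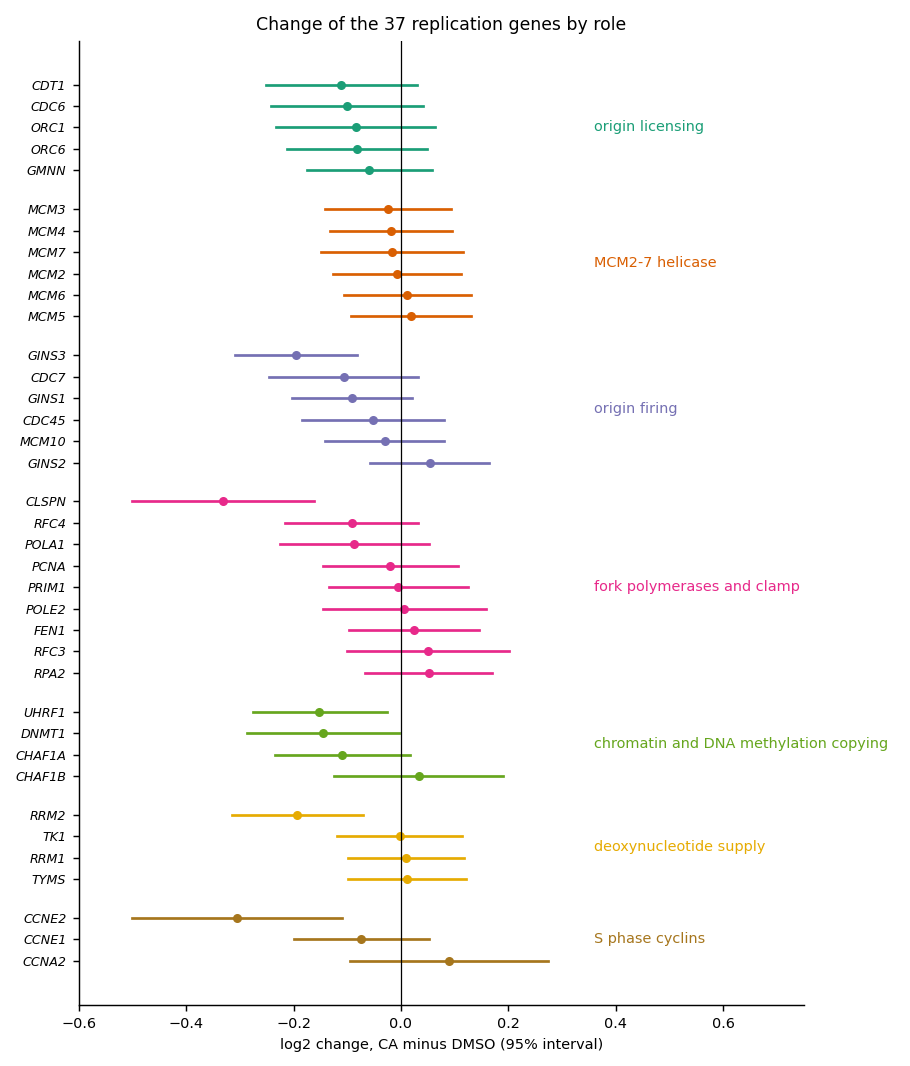
Log2 change, cortistatin A minus DMSO (x axis), of the 37 replication genes grouped by role, as points with 95% intervals from limma (3 arrays per group). The 6 MCM subunits cluster at 0, and the intervals of 6 genes (CLSPN, GINS3, RRM2, CCNE2, UHRF1, DNMT1) lie wholly below 0.

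The 5 licensing genes all had values below 0, and 0 passed the test. CDT1, which brings the helicase to origins, had levels of 8.32, 8.31 and 8.46 with cortistatin A and 8.50, 8.48 and 8.44 with DMSO, a log2 change of -0.11 ± 0.06 (limma SE, adjusted p = 0.505). The groups overlapped, since the third cortistatin A array stood above the third DMSO array, and its other probe set was at -0.0031. CDC6, the ATPase that works with CDT1, had 7.69, 7.54 and 7.64 with cortistatin A and 7.72, 7.68 and 7.76 with DMSO, a change of -0.10 ± 0.06 (limma adjusted p = 0.550). Its other probe set stood at -0.18, with cortistatin A levels of 7.56, 7.51 and 7.51 all below the DMSO levels of 7.74, 7.64 and 7.72. The origin recognition subunit ORC6 had 8.95, 8.87 and 8.91 with cortistatin A and 8.94, 8.98 and 9.06 with DMSO (-0.08 ± 0.05, limma adjusted p = 0.597), and overlapped as well. ORC1, the ATP-binding subunit, was at -0.08. Geminin (GMNN), the inhibitor of CDT1, was at -0.06, the smallest of the 5, with groups that did not overlap.

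By the chosen probe sets the 6 subunits of the MCM helicase were the flattest group, with changes from -0.02 to 0.02 and overlapping groups in each. MCM3 had 9.62, 9.61 and 9.63 with cortistatin A and 9.70, 9.62 and 9.61 with DMSO (-0.02 ± 0.05, limma adjusted p = 0.886). MCM5 had 9.91, 9.92 and 9.95 with cortistatin A and 9.90, 9.94 and 9.88 with DMSO (0.02 ± 0.05, limma adjusted p = 0.904). MCM4 had 10.20, 10.21 and 10.22 with cortistatin A and 10.21, 10.27 and 10.20 with DMSO (-0.02 ± 0.05, limma adjusted p = 0.909). The SD within a group was at most 0.05 for these 3 genes. MCM2, MCM6 and MCM7 were at -0.0077, 0.01 and -0.02. The lowest interval bound of the 6 was a log2 change of -0.15, in MCM7, or 1.11-fold lower. MCM4 was read by 5 probe sets, with changes from -0.09 to -0.02. In the one at -0.0554, cortistatin A levels of 9.54, 9.51 and 9.56 all lay below DMSO levels of 9.57, 9.61 and 9.59. The other MCM4 probe sets overlapped.

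Among the 6 origin firing genes GINS3 stood lowest. GINS3, a subunit of the tetramer that completes the active helicase, had 7.11, 7.06 and 7.09 with cortistatin A and 7.27, 7.31 and 7.25 with DMSO. The groups were separate, with a gap wider than the range of either, and the change was -0.20 ± 0.05 (1.14-fold, limma adjusted p = 0.184). Its other probe set gave -0.23 and was separate too. GINS1 had 9.54, 9.52 and 9.52 with cortistatin A and 9.60, 9.59 and 9.66 with DMSO, separate but by less (-0.09 ± 0.05, limma adjusted p = 0.493). GINS2 was on the other side at 0.05, likewise without overlap, and its other probe sets were at 0.05 and 0.18. The kinase CDC7 had 7.52 on each cortistatin A array and 7.57, 7.73 and 7.60 with DMSO (-0.11 ± 0.06, limma adjusted p = 0.513). CDC45, a further helicase component, was at -0.05 and the origin firing factor MCM10 at -0.03. For MCM10 all 3 probe sets lay between -0.03 and 0.02.

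The 9 genes of the fork held both the lowest value of the set and several of the flattest. CLSPN encodes claspin, which links stalled forks to the checkpoint kinase CHK1. It had 5.96, 6.12 and 6.08 with cortistatin A and 6.37, 6.30 and 6.48 with DMSO, separate groups and a change of -0.33 ± 0.07 (1.26-fold, limma adjusted p = 0.143). Its 3 other probe sets were at -0.15, -0.16 and -0.19 with groups that overlapped, and 2 of these were dim, with a mean no higher than 3.75. RFC4, a subunit of the clamp loader, had 8.94, 8.92 and 8.95 with cortistatin A and 9.07, 9.05 and 8.96 with DMSO (-0.09 ± 0.05, limma adjusted p = 0.533), just separate. The catalytic subunit of polymerase alpha, POLA1, had 7.63, 7.64 and 7.71 with cortistatin A and 7.73, 7.68 and 7.83 with DMSO (-0.09 ± 0.06, limma adjusted p = 0.599), with overlap. The sliding clamp PCNA was at -0.02, the primase subunit PRIM1 at -0.0048, the polymerase epsilon subunit POLE2 at 0.0057 and the flap endonuclease FEN1 at 0.02. The single-strand binding subunit RPA2 (0.05) and the clamp loader subunit RFC3 (0.05) were on the higher side. The 3 probe sets of RFC3 disagreed, with 0.05, -0.03 and -0.39. For the last, cortistatin A levels of 4.46, 4.08 and 4.31 all lay below DMSO levels of 4.64, 4.68 and 4.69 (limma adjusted p = 0.249 over all single-gene probe sets).

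Of the 4 genes that copy chromatin and DNA methylation, 3 stood lower without overlap (9.22% of all genes did), and 0 passed the test. UHRF1, which reads hemimethylated DNA behind the fork, had 10.61, 10.54 and 10.64 with cortistatin A and 10.78, 10.71 and 10.76 with DMSO (-0.15 ± 0.05, 1.11-fold, limma adjusted p = 0.30). DNMT1, the maintenance methyltransferase that UHRF1 recruits, had 10.57, 10.59 and 10.57 with cortistatin A and 10.82, 10.68 and 10.66 with DMSO (-0.14 ± 0.06, limma adjusted p = 0.386). The first DMSO array was the highest for both. CHAF1A, the large subunit of the histone chaperone CAF-1, had 8.45, 8.55 and 8.53 with cortistatin A and 8.67, 8.61 and 8.58 with DMSO (-0.11 ± 0.05, limma adjusted p = 0.458). Its other probe sets above the median were at -0.04 and -0.10 with overlap. Its partner CHAF1B was at 0.03.

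In deoxynucleotide supply RRM2 stood apart from the other 3 genes by the chosen probe sets. RRM2, the regulated small subunit of ribonucleotide reductase, had 11.33, 11.26 and 11.33 with cortistatin A and 11.46, 11.50 and 11.54 with DMSO, separate groups and a change of -0.19 ± 0.05 (1.14-fold, limma adjusted p = 0.205). Its other probe set gave -0.15, with 10.70, 10.69 and 10.67 with cortistatin A against 10.83, 10.85 and 10.83 with DMSO. RRM1, the large subunit, had 10.89, 10.91 and 10.93 with cortistatin A and 10.91, 10.90 and 10.89 with DMSO (0.01 ± 0.05, limma adjusted p = 0.951). The levels of RRM1 overlapped throughout, and its other probe set was at -0.13, with overlap. Thymidylate synthase, TYMS, had 11.57, 11.54 and 11.55 with cortistatin A and 11.53, 11.57 and 11.52 with DMSO (0.01 ± 0.05, limma adjusted p = 0.940). The other probe sets of TYMS were at -0.04 and 0.02, with overlap. Thymidine kinase, TK1, was at -0.0026. Its other probe set was at -0.08, with cortistatin A levels of 8.33, 8.29 and 8.28 all below DMSO levels of 8.35, 8.37 and 8.42.

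Of the 3 cyclins 0 passed the test with the chosen probe set, and CCNE2 had the lowest value. Cyclin E2, CCNE2, which activates CDK2 at the G1/S boundary, had 8.18, 8.02 and 8.29 with cortistatin A and 8.51, 8.52 and 8.37 with DMSO (-0.31 ± 0.08, 1.24-fold, limma adjusted p = 0.211). The groups were separate, though the third array of each came close. Its other probe set, of the _s_at type that can match more than 1 transcript, had 4.91, 4.81 and 4.75 with cortistatin A and 5.46, 5.46 and 5.42 with DMSO. That probe set fell, by 1.54-fold, with a limma adjusted p of 0.0360 over 41091 single-gene probe sets. It was the only one called of the 68 probe sets of the 37 genes (1.47%, against 0.180% of all single-gene probe sets, or 0.0389% called lower). When the probe sets of each gene were averaged, CCNE2 was called at -0.47 (limma adjusted p = 0.0277), where 0.384% of all genes were called and 0.0910% called lower. Cyclin E1, CCNE1, had 7.30, 7.40 and 7.34 with cortistatin A and 7.40, 7.47 and 7.39 with DMSO (-0.07 ± 0.05, limma adjusted p = 0.629). Cyclin A2, CCNA2, had 10.30, 10.15 and 10.36 with cortistatin A and 10.10, 10.28 and 10.16 with DMSO (0.09 ± 0.08, limma adjusted p = 0.692), with overlap, and its other probe set was at -0.08.

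**Figure D3:**
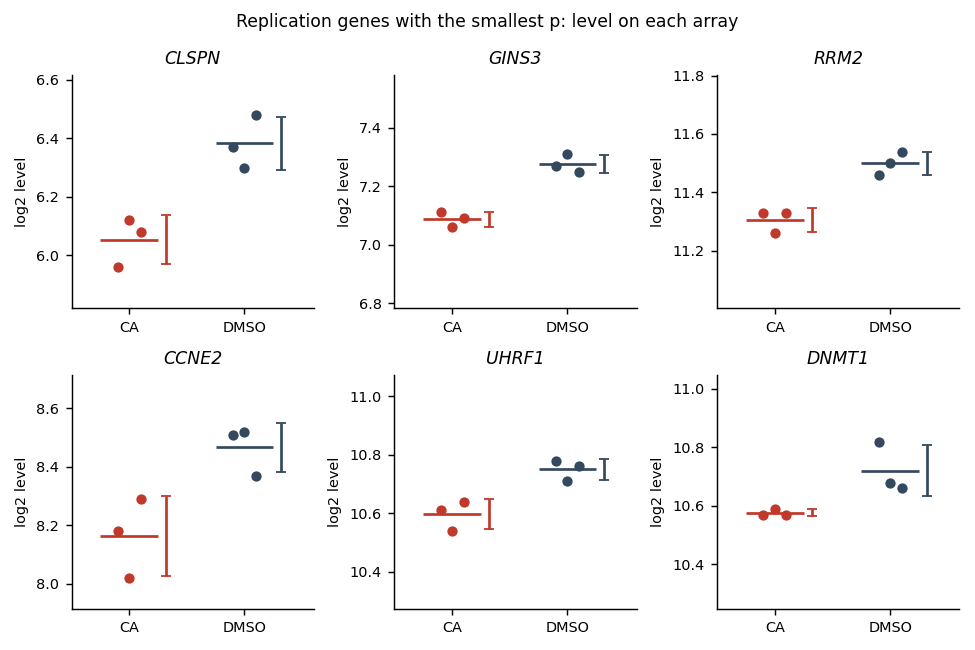
Log2 level on each array (points, cortistatin A left and DMSO right) of the 6 replication genes with an unadjusted limma p under 0.05, with group means (lines) and SD (bars, n = 3), each panel spanning the same log2 range. In every panel the 3 cortistatin A points lie below the 3 DMSO points, and the mean difference ranges from -0.33 (CLSPN) to -0.14 (DNMT1).

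Whether any of the 37 genes was called depended on how the variances were moderated and, for CCNE2, also on the probe set read. With limma's variances allowed to follow the level of a gene and made robust to outlying genes, 6 of the 37 were called, all lower (16.2%, against 1.55% of all genes called lower and 3.85% called in either direction). They were RRM2 (adjusted p = 0.00115), CCNE2 (0.0104), UHRF1 (0.0150), CLSPN (0.0167), GINS3 (0.0418) and DNMT1 (0.0469), the same 6 that had an unadjusted p under 0.05. The changes are identical in both fits and only the variances differ. All 37 genes lie above the median level. With dim genes left out 0 of the 37 were called, where limma called 321 of 12622 genes. The limma adjusted p of the same 6 was then 0.0563 (CLSPN), 0.0635 (GINS3), 0.0778 (RRM2), 0.0988 (CCNE2), 0.144 (UHRF1) and 0.22 (DNMT1). Likewise 0 of the 37 were called in each of the 6 fits that left out 1 array. Those fits called only 0 to 4 of all genes, so they could hardly call any of the 37.

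Probe sets other than the chosen one mostly kept its sign. Of 26 further probe sets above the median of all values 18 had the sign of the chosen one, as had 4 of 5 dim ones. A total of 20 genes had more than 1 probe set. For 9 of the 19 genes with at least 2 probe sets above that median, all of these lay below 0. Of all 68 probe sets 49 lay below 0.

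**Figure D4:**
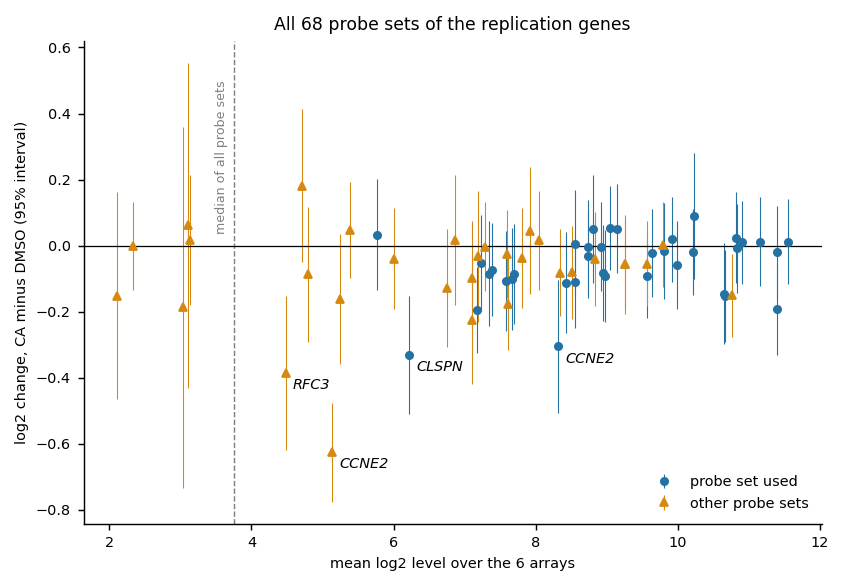
Log2 change, cortistatin A minus DMSO, with 95% interval (y axis) against mean log2 level over the 6 arrays (x axis) for the 68 probe sets of the 37 genes, with the chosen probe sets as circles and the others as triangles. The second CCNE2 probe set at 1.54-fold lower stands below all others, and 5 probe sets lie left of the dashed median.

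Beyond the 37 genes, 41 of 42 other replication genes were measured, among them polymerase delta and epsilon subunits, the remaining origin recognition subunits and DNA ligase 1. Of these 0 passed the test (0.582% of all genes did), and their median was -0.02. At an unadjusted limma p under 0.05 stood 2 with lower values (5.83% of all genes did) and 1 with a higher value (6.81% of all genes). ATAD5, which unloads PCNA, was at -0.25 (limma adjusted p = 0.175), the polymerase delta subunit POLD3 at -0.15 and the nucleotide pyrophosphatase DCTPP1 at 0.13. In the E2F and pocket protein list 2 of 13 were called lower (0.137% of all genes were) and 0 higher (0.445%). Groups did not overlap for 5 of the 13 at lower values (9.22% of all genes) and for 0 at higher values (10.2%). The atypical repressors E2F7 and E2F8, which restrain S phase genes, were the members called. E2F7 had 6.94, 6.88 and 6.84 with cortistatin A and 7.41, 7.40 and 7.39 with DMSO. E2F8 had 6.96, 6.93 and 7.03 with cortistatin A and 7.56, 7.51 and 7.46 with DMSO. Their log2 changes were -0.51 ± 0.05 and -0.54 ± 0.05 (limma adjusted p = 0.0198 and 0.0206), further from 0 than that of any chosen probe set of the 37 genes. The activator E2F2 was at -0.28 (limma adjusted p = 0.166). The calls of E2F7 and E2F8 ended without any 1 of the 6 arrays (limma adjusted p from 0.0903 to 0.120). Those fits called only 0 to 4 of all genes, and the changes stayed at -0.538 to -0.487 for E2F7 and -0.565 to -0.512 for E2F8. The call of E2F7 ended also when its probe sets were averaged (-0.31, limma adjusted p = 0.123). Both calls ended with the 3' minus 5' index as a covariate (-0.48 and -0.62, limma adjusted p = 0.370 for each), where limma called 0 of all genes.

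Lists on either side of S phase held 0 called genes, where 0.582% of all genes were called. Of 14 measured G1/S control genes 3 had an unadjusted limma p under 0.05 at lower values (5.83% of all genes did) and 3 at higher values (6.81% of all genes). The CDK inhibitor CDKN1A was at -0.34 (limma adjusted p = 0.0679), CDKN2D at -0.26 and CDKN1B at 0.21. Of 11 checkpoint and fork repair genes, with a median of -0.00043, BARD1 was at -0.20, BRIP1 at -0.14 and RAD51AP1 at 0.14. Of 25 mitosis genes, with a median of -0.02, 16 lay below 0 (64%). The spindle checkpoint kinase BUB1B was at 0.13, the kinesin KIF11 at -0.15 and the proliferation marker MKI67 at 0.20, all with limma adjusted p of 0.328 or more. The difference between these lists and the 37 genes was not tested.

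**Figure D5:**
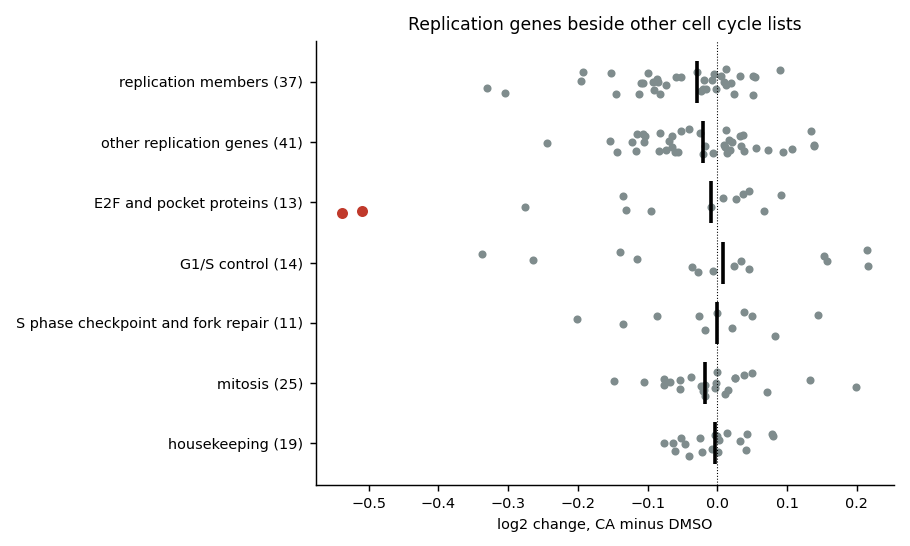
Log2 change, cortistatin A minus DMSO (x axis), of each measured gene (points) in the replication set and 6 other lists, with the number of genes in brackets and the list median as a bar. Red points passed limma at an adjusted p under 0.05, and only E2F7 and E2F8 did.

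On the arrays as a whole, pairs correlated across genes at 0.9975 to 0.9979 within cortistatin A, 0.9975 to 0.9977 within DMSO and 0.9969 to 0.9974 between the groups. All 7 measured myeloid markers of 10 listed, with FLT3, MPO and CEBPA among them, lay above the median probe set value, as did 12622 of all 19775 genes. The 7 ran from SPI1, at 4.36 in both groups, to LYZ, at 12.43 with cortistatin A and 12.40 with DMSO. The B cell marker CD79A averaged 5.14 with cortistatin A and 5.10 with DMSO. Above that median were also 2 of 4 T cell, 3 of 4 B cell, 2 of 2 erythroid and 2 of 4 epithelial and fibroblast markers. In the last list EPCAM averaged 1.62 with cortistatin A and 1.55 with DMSO, COL1A2 2.62 and 2.54, COL1A1 6.12 and 6.10, and KRT18 7.04 and 7.18, the one of these 4 whose groups did not overlap (limma adjusted p = 0.285). Of the myeloid markers CEBPA, a myeloid transcription factor, rose by 0.43 on the log2 scale (limma adjusted p = 0.0248). That call was not held with the index as a covariate, with the replicate number as a block or in 4 of the 6 fits that left out 1 array. In each of these limma called 0 of all genes (1934 to 2342 at an unadjusted p under 0.05). Whether CEBPA was called in the remaining fits without 1 array, which called 3 and 4 genes, is not given here. FLT3 was at -0.20 and MEIS1 at 0.17 (limma adjusted p = 0.196 and 0.217). The 19 housekeeping genes had a median of -0.0037 and 0 called, with PSMB2 at -0.08, RAB7A at 0.08 and CHMP2A at 0.08.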

How the data were processed

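RNA of 6 MV4;11 samples was hybridised to 1-colour arrays, with 3 cortistatin A and 3 DMSO arrays grouped by their titles. The deposited values, 1 per probe set and array, lie on the log2 scale (0.81 to 13.84, a scale the table does not state). RMA and the affy package are named without versions, per the submitters' processing notes. Such normalization removes a shift common to all transcripts. No depth applies to arrays, and their number limits the precision.

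Of 54675 probe sets, 41091 name 1 gene in the platform annotation, 1801 several and 11721 none used here, and 62 are controls. Symbols were updated by gene identifier for 41037. limma 3.58.1 in R 4.3.3 compared the groups (lmFit and eBayes, group only, 4 residual and 2.68 prior degrees of freedom, two-sided, Benjamini-Hochberg), and the step was tested on simulated data. The members, lists and alternatives were chosen with earlier results of these data known. Values on every array are given for the 3 genes of smallest p per role and any called in an alternative. The other gene lists, cell type markers aside, give called genes and the 3 of smallest p. Same-numbered replicates did not deviate together (r = -0.05, 0.0095 and 0.02), so the numbers were not taken as pairs. No array was a copy of another (678 identical values in the closest pair). E2F7 and E2F8 were recomputed under every alternative after their calls were seen.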

Additional observations from a re-analysis of the deposited data

How the results depend on the processing

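With 3 arrays per group, the 95% interval of the chosen probe set stayed within 1.15-fold for 20 of the 37 genes. The number of genes called over all genes was 115, and became 321 after dim genes were dropped, 76 when probe sets of a gene were averaged, 54 without the _x_at and _s_at types, 762 with trend and robust variances and 260 at an adjusted p under 0.1. It was 0 with the replicate number as a block (2243 genes at an unadjusted limma p under 0.05), 0 with the control index (3' minus 5') as covariate (1934) and 0 to 4 when 1 array was left out (1952 to 2342). Of the 37 replication genes limma called 0, against 1 with the mean of probe sets (CCNE2) and 6 with trend and robust variances. The replicate block changed no call among the 37, where 0 passed and 5 had an unadjusted p under 0.05. Of the 41 other replication genes 1 was called with trend and robust variances, where 3.85% of all genes were called in either direction. It was DCTPP1, with higher values under cortistatin A (0.13). The median of the 37 genes was -0.052 with the mean of probe sets, -0.0048 with housekeeping centring and -0.0714 with the index, and 7 of the 37 had groups without overlap under that centring, all lower (5.15% of all genes), in place of 11 lower (9.22%) and 2 higher. The median of the other replication genes turned to 0.0109 without the _x_at and _s_at types and to 0.0042 with housekeeping centring, and was -0.0742 with the index. Over all settings 21 of the 37 genes never changed sign. Those that did include PRIM1 (-0.0433 to 0.0304), POLE2 (-0.0693 to 0.056) and RFC3 (-0.122 to 0.0801). Signs also turned among the genes given with every array of the chosen probe set. With housekeeping centring MCM3 was at 0.0015 and MCM4 at 0.0064. A further quantile normalization gave -0.0026 for MCM5 and -0.00067 for RRM1. The index gave -0.00016 for MCM5, -0.0102 for RRM1 and -0.0414 for CCNA2. The mean of probe sets gave -0.0594 for RRM1 and -0.0043 for TYMS. Leaving out 1 array gave -0.04 to 0.0034 for MCM3, -0.0319 to 0.0038 for MCM4 and -7.2e-06 to 0.0204 for RRM1. With no call among them, 1 array also moved CDC6 (-0.0573 without cortistatin A replicate 2), CDC7 (-0.0593 without DMSO replicate 2), ORC6 and POLA1 (-0.0492 and -0.0466 without DMSO replicate 3), DNMT1 (-0.0942 without DMSO replicate 1) and CCNA2 (0.0438 to 0.149) by over 1.5 times, as it did the near-0 changes of MCM5 (0.0066 to 0.0343) and TYMS (0.0036 to 0.0276). The replicate block also ended the calls of E2F7 and E2F8 (limma adjusted p = 0.181 and 0.189); the numbers do not mark shared wells in the labels. The cause was not tested, apart from the fewer arrays or genes that some settings use by construction.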
